A study of Drosophila melanogaster with 2 samples.

Results

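The basement membrane and hemocyte matrix genes are 10 genes of Drosophila melanogaster: Col4a1, vkg, LanA, LanB1, LanB2, trol, SPARC, Ppn, Tig and Glt. They were chosen by symbol, current or older, and the rule itself uses no signal. The platform annotation gives each at least 1 probe set of its own, so all 10 were measured, among 11983 genes measured in this way. They have 17 probe sets out of 13647 that the annotation assigns to a single gene. Of the 10 genes, 9 have 1 probe set each and trol has 8, and no probe set that the annotation shares between several genes includes one of them.

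The series holds 2 Affymetrix Drosophila Genome 2.0 arrays, replicates 1 and 2 of 1 group. The group is S2 cells, an established line derived from fly embryos with macrophage-like properties, kept for 8 days in medium with double-stranded RNA (dsRNA) matching the jellyfish protein GFP, given in 2 rounds of 4 days. Both arrays carry that treatment, and no untreated cells were analysed here, so levels are described and no effect of the treatment is measured. The labels call the treatment a duplicate and do not say whether the cultures were grown apart, so the spread between the arrays may be technical.

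A basement membrane is a thin sheet of secreted matrix that lines tissues. Laminin trimers, made of an alpha, a beta and a gamma chain, attach to cell surfaces, a network of collagen IV gives the sheet strength, and perlecan, a heparan sulfate proteoglycan, fills and hydrates it. In the fly, hemocytes (blood cells) and the fat body make much of this material and release it into the body cavity, from which it settles on other tissues.

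A signal below is the authors' linear intensity in arbitrary units. Smell and taste receptor genes, which blood-like cells have no known use for, served as background: 112 of them have 125 probe sets, and the 95th percentile of these signals was the background limit of an array. It was 146 on replicate 1 and 136 on replicate 2. Detected means that at least 1 probe set of the gene exceeded the limit on replicate 1 and on replicate 2. Probe sets respond differently to the same amount of RNA, so signals were not ranked between genes, and multiples of the limit are margins over background rather than amounts of transcript.

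All 10 matrix genes were detected, against 49.1% of all genes measured (5886 of 11983). The margin was wide: the median signal of the 10 genes was 43.5 times the limit on replicate 1 and 42.3 times on replicate 2. Over all detected genes the medians were 6.21 and 6.70 times the limit. All 10 lay over 5 times the limit on both arrays, where 28.3% of all genes did. Over 10 times the limit on both arrays lay 8 of the 10, where 15.3% of all genes did, and the other two were Tig and trol. All 10 were also detected with the limit at the 90th percentile (51.6% of all genes), at the 99th (43.8%) or at the highest control probe set (55.5%). These multiples were chosen after the signals were seen, and no test was made of the list, whose members were proposed with results of these arrays known.

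The collagen IV chains were both far above background. Col4a1 (CG4145), the alpha1 chain, had signals of 5612 on replicate 1 and 5287 on replicate 2, a level of 5449 ± 230 (SD, n = 2). The arrays differed little for this gene, and both values were about the same multiple of their limits, 38.4 and 39.0. The alpha2 chain gene vkg (viking, CG16858) had 3324 on replicate 1 and 2802 on replicate 2, a level of 3063 ± 369 (SD, n = 2). That put vkg at 22.8 and 20.7 times the limit, with the lower value on replicate 2 as for Col4a1. Col4a1 and vkg are next to each other among the protein-coding genes of the gene table used here.

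The laminin chains in the list make up a complete alpha, beta and gamma set, and each chain gene was detected. LanA (CG10236) encodes an alpha chain and had signals of 11280 on replicate 1 and 12131 on replicate 2, a level of 11706 ± 602 (SD, n = 2). LanB1 (CG7123), the beta chain gene, had 8598 and 8349 on replicates 1 and 2, a level of 8473 ± 176 (SD, n = 2). LanB2 (CG3322), the gamma chain gene, had 7081 and 6198, a level of 6640 ± 624 (SD, n = 2). All 3 were over 45 times the limit on each array, and LanA was the one of them that was higher on replicate 2. The fly has another laminin alpha chain gene, wb (wing blister), which is not in the list. Its brightest probe set, of 3, read 134 and 103 and was below the limit on both arrays.

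The perlecan gene trol (terribly reduced optic lobes, CG33950) is the only member read by several probe sets, and its 8 probe sets did not behave alike. RefSeq lists 25 transcripts for trol, and 1 to 4 for each of the other 9 genes. The brightest probe set, 1641442_a_at, had signals of 1192 on replicate 1 and 1034 on replicate 2, a level of 1113 ± 111 (SD, n = 2). The next, 1625116_at, had 1142 and 882, and 1640223_a_at had 541 and 486. These 3 were above the limit on both arrays and carry the detection of the gene.

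A further 2 trol probe sets sat at the limit and passed it on replicate 1 only. 1628566_at read 156 on replicate 1 and 117 on replicate 2, and 1640189_at read 164 and 100. The last 3 were far below the limit on both arrays. 1637281_at had 24.1 and 8.17, 1630978_s_at had 11.8 and 12.1, and 1640050_at had 2.99 and 16.1. The tables used here do not give where along the gene each probe set lies or which transcripts it matches, so transcripts that are absent and probe sets that respond poorly cannot be told apart.

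**Figure D1:**
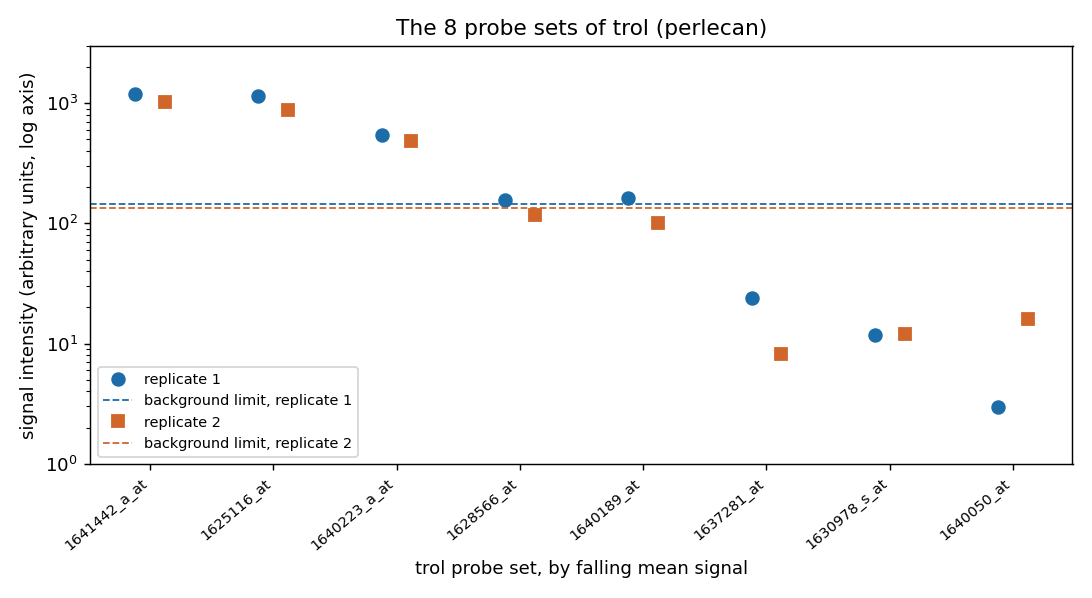
Signal intensity (log axis) of the 8 trol probe sets on replicate 1 (circles) and replicate 2 (squares), ordered by mean, with the background limit of each array as a dashed line. Of the 8, 3 lie above the limits on both arrays, 2 cross the limit on replicate 1 only, and 3 lie far below.

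Such disagreement was also seen in other genes. Among 1094 genes with several probe sets, 27.6% had some that were detected and some that were not. Of the 6 genes with 8 or more probe sets, trol included, 4 did (66.7%). Counted by probe set, 12 of the 17 matrix probe sets were above the limit on both arrays, against 46.1% of all single-gene probe sets. The 5 that were not all belong to trol, so 9 of the 10 genes had every probe set above the limit, against 46.6% of all genes.

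SPARC (CG6378) encodes a calcium-binding glycoprotein that binds collagen IV and is needed for its deposition. It had signals of 15380 on replicate 1 and 18343 on replicate 2, a level of 16861 ± 2095 (SD, n = 2). Both arrays gave more than 100 times the limit (105 and 135), and the gene was higher on replicate 2. Ppn (papilin, CG33103) encodes a sulfated matrix glycoprotein related to ADAMTS proteases, and had 4288 and 3768, a level of 4028 ± 368 (SD, n = 2). This was 29.4 times the limit on replicate 1 and 27.8 times on replicate 2.

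Glt (glutactin, CG9280) encodes a sulfated basement membrane glycoprotein with a cholinesterase-like part. It had signals of 8722 on replicate 1 and 7638 on replicate 2, a level of 8180 ± 767 (SD, n = 2). Both values were over 55 times the limit, the lower one on replicate 2. Tig (tiggrin, CG11527) encodes a matrix ligand of integrins, and had 869 and 906, a level of 888 ± 26.4 (SD, n = 2). This was 5.95 times the limit on replicate 1 and 6.68 times on replicate 2, well clear of the limit on each array.

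**Figure D2:**
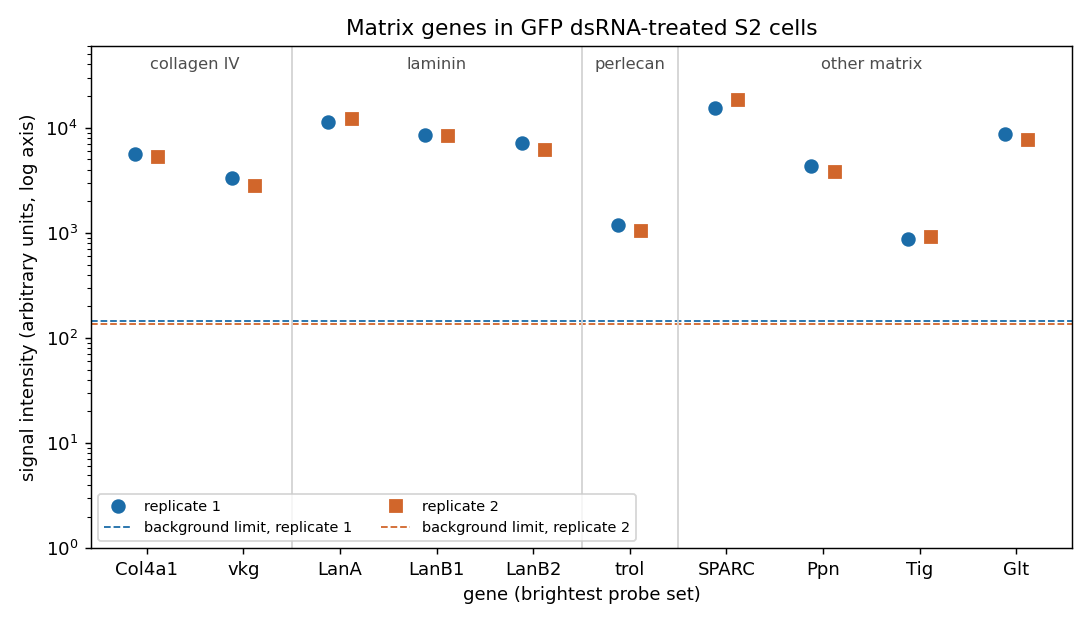
Signal intensity (log axis) of the brightest probe set of each matrix gene on replicate 1 (circles) and replicate 2 (squares), with the background limit of each array (146 and 136) as a dashed line. Every gene lies above both limits, Tig at 869 and 906 and SPARC at 15380 and 18343 among them.

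The probe sets of Col4a1, Glt and LanB1 carry the suffix _s_at, as does 1 of trol, which in this array family marks probes that can match transcripts of more than one gene. The annotation assigns each to a single gene, and cross-hybridisation to other transcripts was not tested here. Of the related genes described below, the signals of Plod, Tsp and Sdc also come from _s_at probe sets. The signal given for mys comes from a probe set with another suffix, _x_at, and its cross-hybridisation was not tested either. The other mys probe set, with the plain suffix _at, had 3595 on replicate 1 and 2999 on replicate 2.

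Between the duplicate arrays none of the 10 genes differed by more than 2-fold, and of all detected genes 0.153% did (9 of 5886). As log2 of replicate 2 over replicate 1, their differences ran from -0.25 for vkg to 0.25 for SPARC, and 8 of the 10 were smaller than the SD of 0.22 over all detected genes. The median was -0.14 for the matrix genes and 0.00 (-0.00222) for all detected genes. Lower on replicate 2 were 7 matrix genes, against 50.5% of all detected genes, a share that became 62.9% with each array scaled to the same median. With 1 array on each side there is no test of these differences, and in RNA from a whole culture fewer cells expressing a gene and less of its RNA per cell cannot be told apart.

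The 7 were vkg (-0.25), trol (-0.20), LanB2 (-0.19), Glt (-0.19), Ppn (-0.19), Col4a1 (-0.09) and LanB1 (-0.04). The 3 trol probe sets above the limit on both arrays had differences of -0.20, -0.37 and -0.15, from the brightest to the dimmest. The 3 genes that were higher on replicate 2 were SPARC (0.25), LanA (0.10) and Tig (0.06).

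SPARC and LanA are the matrix genes with a mean signal of 10000 or more, and genes that bright were generally higher on replicate 2. Of the 75 detected genes in that class 93.3% were higher there, with a median difference of 0.20 and an SD of 0.13. In the classes below, the medians were 0.01 at 5000 to 10000, -0.03 at 1000 to 5000 and 0.01 under 1000. Quantile normalization gives both arrays the same distribution of signals, so a gene of equal rank on both gets a difference of 0 by construction. After it the difference of SPARC was 0 for this reason, and that of LanA was 0.02. None of the 4 matrix genes at 5000 to 10000 and none of the 3 at 1000 to 5000 was higher on replicate 2, where 53.3% and 43.6% of the detected genes in these classes were.

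**Figure D3:**
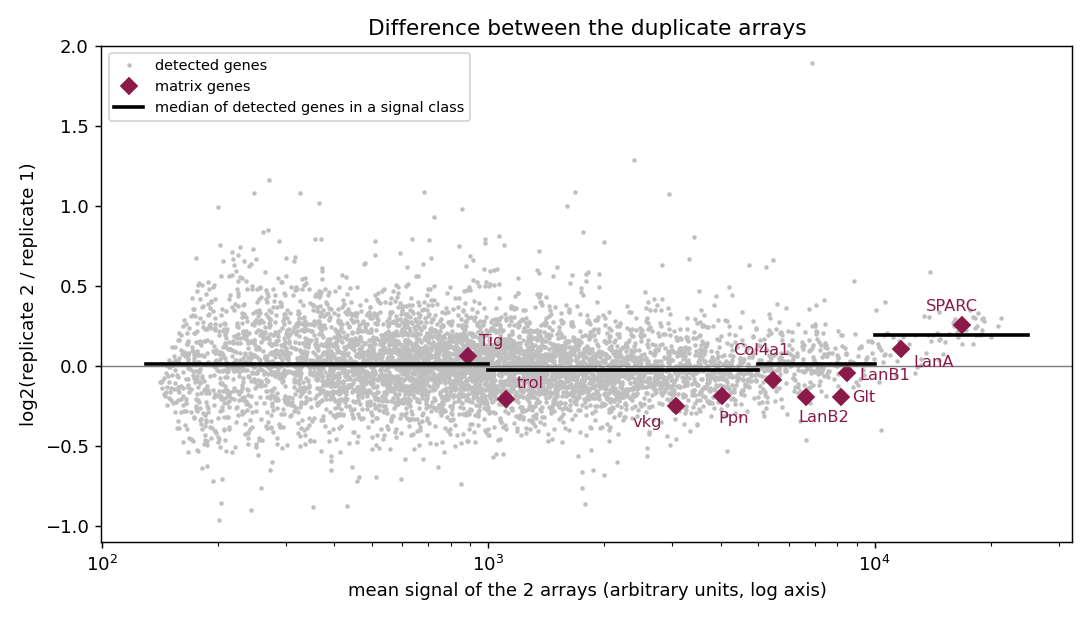
Difference between the arrays as log2(replicate 2 / replicate 1) against the mean signal (log axis) for all 5886 detected genes (grey points) and the 10 matrix genes (diamonds), with the median of detected genes in 4 signal classes as black lines. The matrix genes lie between -0.25 and 0.25, and SPARC and LanA lie in the brightest class, whose median is 0.20.

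Genes that act with these proteins were described from 4 further lists. Of 11 other matrix protein genes measured, 4 were detected (36.4%), against 49.1% of all genes. Pxn, a peroxidase that crosslinks collagen IV, had signals of 8376 on replicate 1 and 7680 on replicate 2 by 1 of its 2 probe sets. The thrombospondin gene Tsp had 3386 and 3167, also by 1 of 2 probe sets, and the clotting factor gene fon had 165 and 270. The remaining one was Hml (hemolectin), a clotting protein gene, named here after its values were seen, at 4877 and 4141.

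The other 7 were not detected, and they include a core basement membrane component. Ndg, the nidogen gene, whose product links laminin to collagen IV, read 42.9 on replicate 1 and 24.4 on replicate 2. It has only 1 probe set, and whether that probe set responds well was not tested. The low reading does not show that Ndg is silent. Mp (multiplexin), a collagen of the type XV and XVIII kind, had 79.9 and 110. All 3 chains of 1 laminin, both collagen IV chains and perlecan were detected, while the nidogen gene and the alpha chain gene wb were not. The call for wb depended on the limit, since wb was detected with the limit from the control probe sets, and Ndg was not. With the stricter 99th percentile limit fon was no longer detected.

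Collagen chains are modified, folded and packed into carriers in the secretory pathway. In that list 8 of 9 measured genes were detected (88.9%), against 49.1% of all genes. PH4alphaEFB, a prolyl hydroxylase subunit that modifies collagen, had signals of 7049 on replicate 1 and 7802 on replicate 2. Plod, the lysyl hydroxylase gene, had 1716 and 1621. Tango1, which loads bulky cargo such as collagen at the endoplasmic reticulum exit sites, had 1604 and 1716. Each of these was over 10 times the limit on both arrays. The exception was Pdi, a disulfide isomerase gene, whose only probe set read 19.9 and 39.6. Pdi is known as an abundant transcript, and whether this probe set measures it was not tested here, so the low reading does not show that the gene is silent.

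Of 11 measured genes for matrix receptors 4 were detected (36.4%), against 49.1% of all genes. mys, the main integrin beta subunit, had signals of 4106 on replicate 1 and 3497 on replicate 2, and both of its probe sets passed. Sdc (syndecan), a heparan sulfate proteoglycan of the cell surface, had 2050 and 1722. Dg, the dystroglycan gene, a laminin receptor, passed narrowly with 208 and 145. The fourth was the glypican gene dlp, named after its values were seen, at 339 and 435.

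No integrin alpha subunit gene was detected on both arrays by this limit. mew read 110 on replicate 1 and 150 on replicate 2, above the limit on replicate 2 alone, as was scb at 119 and 146. The gene if read 32.4 and 37.9. The second beta subunit gene Itgbn was below the limit at 127 and 106. Several of these genes lay just under the limit, so the count depended on it. With the 90th percentile limit 7 of 11 receptor genes were detected, among them mew, scb and ItgaPS5, above the share of all genes (51.6%). With the 99th 3 of 11 were detected, with Dg lost, below the share of all genes (43.8%). By replicate 2 alone, with its limit unchanged, 6 of 11 were detected, mew and scb among them, against 50.6% of all genes.

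Among 6 measured genes for matrix proteases and their inhibitor 2 were detected (33.3%), against 49.1% of all genes. Mmp2, a matrix metalloprotease that cleaves basement membrane, had signals of 1335 on replicate 1 and 1301 on replicate 2 by 1 of 2 probe sets. The other was nolo, an ADAMTS-like gene, at 3315 and 3141, by all 3 of its probe sets. Timp, the inhibitor of the metalloproteases, was not detected at 47.7 and 35.0. The protease genes AdamTS-A (32.8 and 67.3) and AdamTS-B (87.0 and 70.2) were not detected either.

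Marker genes of several cell types were read in the same way, to describe which of them were detected in this 1 cell line. The share of all genes detected was 49.1%. Of 10 hemocyte markers 9 were detected (90%), and the missing one was the phagocytic receptor gene NimC1, at 96.6 on replicate 1 and 127 on replicate 2, which passed only the control probe set limit. Among the 9, eater passed narrowly, at 233 on replicate 1 and 229 on replicate 2 (1.60 and 1.68 times the limit). Hml and Pxn, whose signals are given above, are in this list and also among the other matrix proteins. The GATA factor gene srp, which specifies blood cells and fat body in the embryo, had 8547 and 8747. In the fat body list 1 of 6 measured genes was detected, the larval serum protein gene Lsp2 at 220 and 156. The summed signal of these 6 genes was 322 and 274, with the yolk protein gene Yp3 at 5.06 and 6.24. None of 6 measured muscle and none of 7 measured ovarian follicle markers was detected on both arrays. Their summed signals were 257 and 257 for muscle and 302 and 330 for follicle. The muscle markers Mhc, Act57B, Mef2 and wupA, the fat body markers Lsp1alpha, Lsp1beta and Lsp1gamma, and the follicle marker Vm26Ab were not measured. The follicle list's Cp15 passed on replicate 2 alone. With the 90th percentile limit or the control probe set limit, 1 gene of each list was detected, bt (110 and 114) for muscle and Cp15 (114 and 161) for follicle. Among crystal cell and lamellocyte markers 1 of 5 was detected, and among neuronal and glial markers 2 of 6. These are PPO3 (731 and 872) in the first list, and elav (209 and 183) and moody (2488 and 1856) in the second. With the 99th percentile limit Lsp2, elav and the hemocyte marker eater were no longer detected. That left 0 of 6 fat body, 1 of 6 neuronal and glial and 8 of 10 hemocyte markers, against 43.8% of all genes.

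**Figure D4:**
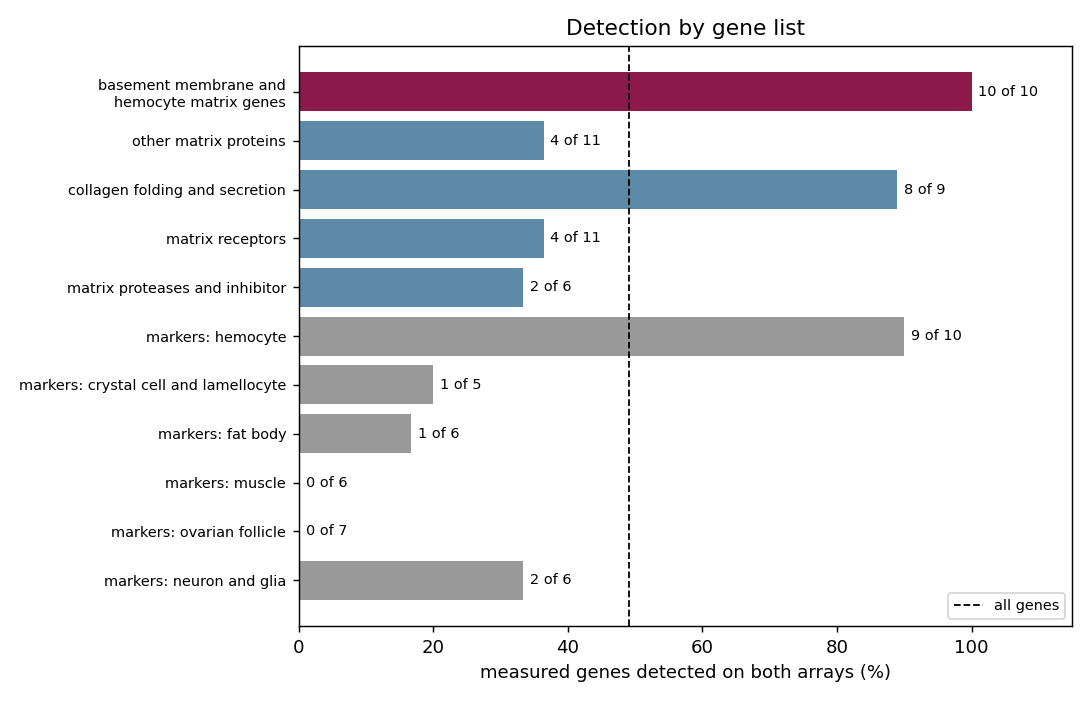
Share of measured genes detected on both arrays (%, horizontal bars from 0) in the matrix genes, the 4 related lists and 6 marker lists, with the count beside each bar and the share of all genes (49.1%) as a dashed line. The matrix genes (10 of 10), the hemocyte markers (9 of 10) and the collagen folding and secretion genes (8 of 9) lie above the line and the other lists below it. Hml and Pxn count in both the hemocyte markers and the other matrix proteins. With the 90th percentile limit or the control probe set limit the matrix receptors lay above the share of all genes.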

How the data were processed

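Cellular RNA was copied from oligo-dT, amplified with biotin labels and hybridised to 1 array per sample, per the labels' protocols. The deposited table holds an intensity on a linear scale for every probe set of each array. For the summary of probes, scaling and filters, the method is not given in the sources used here. Median intensity was 70.8 on replicate 1 and 73.8 on replicate 2, and values were used as deposited. The number of arrays, not a read depth, limits precision.

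Probe sets were named by the platform annotation where it gave 1 gene (402 gave several), with symbols updated by gene identifier in a RefSeq gene table. A gene's level is the mean ± SD of its brightest probe set. A floor of 1 was set before log2 was taken. All computation used Python 3.11.15 with pandas 2.3.3 and numpy 2.4.6. The code of the detection call was tested on simulated data whose background was drawn from the receptor signals themselves. That does not test whether the receptor limit is a valid background. No test between groups exists with 1 group. Members, lists and most settings were chosen with earlier results of these data known. Named were all members and, of each related list, the first 4 measured genes and up to 2 whose detection went against the majority; other named genes were chosen after their values were seen. Not measured by a probe set of their own were mfas, dally, Mmp1, Sar1, Sec23, Rab8 and Calr of the related lists. The marker genes that were not measured are named with the marker lists above.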

Additional observations from a re-analysis of the deposited data

How the results depend on the processing

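The count of 10 detected matrix genes was also 10 with the 90th percentile limit, with the 99th, with the highest of 50 controls carrying protein accessions as the limit (85.0 and 70.3), after quantile normalization, and at 5 times the limit. It was 9 where all probe sets were required, which lost trol, and 8 at 10 times the limit. Without replicate 1 or replicate 2 it was 10 to 10. Of the 17 probe sets 12 were detected, with a range of 12 to 14 over the other limits and single arrays. The median difference of -0.14 ran from -0.20 with median scaling to -0.10 with the mean of all probe sets. The level of trol was 368 as the mean of its 8 probe sets, against 1113 for the brightest. With the control probe set limit 9 of 11 receptor genes were detected, above the share of all genes (55.5%). No paired analysis was possible because both arrays belong to 1 group. Low signals are limited by background, and 2 arrays cannot separate culture from technical spread.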

Other observations

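Other genes with as many probe sets as trol differed widely in how many were above the limit on both arrays, and they are named here after their values were seen. For lola and mod(mdg4), transcription regulator genes with many alternative 3′ exons, 13 of 15 and 19 of 22 probe sets were detected. Sarm had 4 of 9. None of the 10 probe sets of pip, a sulfotransferase gene of the egg chamber, and none of the 8 of CG34353 was detected. The share for trol was 3 of 8.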
